A study of Mus musculus with 6 samples.

Results

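The genes described here are 10 targets of the hypoxia-inducible factor HIF-1 that act in glycolysis, glucose uptake, oxygen sensing and mitophagy. They were taken by symbol from a table of RNA levels of melanoma tumours, and all 10 of the listed symbols were found among its 20938 genes. The tumours were grown from B16F10 cells, a mouse melanoma line, implanted subcutaneously at the left hind leg of male C57BL/6 mice aged 6 weeks, and they were taken on day 19. There were 3 tumours of cells overexpressing YKL-40, a secreted chitinase-like protein, and 3 control tumours. Both groups have the genotype label WT and received 200 µL of cell suspension in saline. The labels do not give the vector of either group, the species of the overexpressed sequence, whether the cells were a clone or a pool, or whether each of the 3 tumours of a group had its own mouse, so p-values cover the spread among these libraries and nothing wider.

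HIF-1 is a transcription factor whose alpha subunit is hydroxylated by the EGLN enzymes when oxygen is present and is then broken down through the VHL protein. When oxygen is short the subunit accumulates, pairs with ARNT and binds DNA at hypoxia response elements, which switches on glucose transporters, glycolytic enzymes and genes that restrain the use of pyruvate in mitochondria. In solid tumours these targets are widely used as a readout of low oxygen. Several of them are also expressed in well-oxygenated tumour cells that make lactate.

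Levels are FPKM, fragments scaled to transcript length and library depth. They summed to 468605 to 490955 in the YKL-40 libraries and 469464 to 479586 in the controls. Chil1, the mouse gene of YKL-40, was listed at 0 in all 3 YKL-40 libraries, and at 0.0644, 0 and 0.0242 FPKM in the controls, so every direction below rests on the labels alone. The 10 melanocyte markers, the check on the labelled cell type, were all above 0 and summed to 9764 to 11938 FPKM in the YKL-40 libraries and 9600.3 to 11052 FPKM in the controls. The sums of macrophage, T and NK cell, and skeletal muscle markers did not overlap between the groups. The 12 macrophage markers summed to 332 to 482 FPKM in the YKL-40 libraries against 91.6 to 297 in the controls. The 11 T and NK cell markers found summed to 10.5 to 28.7 against 1.92 to 6.17, and the 14 skeletal muscle markers to 23.5 to 51.8 against 61.5 to 199.6. Eno3, 1 of these 14, is also on the list of glycolytic enzymes below, and its groups overlapped. It had 30.9, 22.7 and 17.6 FPKM in YKL-40 libraries 1, 2 and 3, where the muscle sums were 39.6, 51.8 and 23.5. In controls 1, 2 and 3 it had 27.1, 18.8 and 18.03 FPKM. Sums of the other lists overlapped, while single markers in them did not always. Of the 10 fibroblast markers, 5 had YKL-40 libraries all above the controls and 0 had them all below. All tested genes had 10.3% and 14.2% of such cases. Of the 7 red blood cell markers, 1 lay all above and 2 lay all below, and Hba-a1 passed the test described below as higher. The 10 fibroblast markers summed to 257 to 451 against 50.4 to 289, the 10 endothelial markers to 107 to 163 against 106 to 166, the 7 red blood cell markers to 96.3 to 550.2 against 472 to 1440.5, and the 8 neutrophil markers, of which Ly6g was listed at 0 in every library, to 2.24 to 7.88 against 0.766 to 15.7. The part of these cells in the results below was not tested. The level of muscle, taken from the 10 tested markers with Eno3 among them, was a covariate in an alternative fit. As the muscle sums did not overlap between the groups, that fit cannot tell muscle and group apart. In such bulk samples, fewer cells of a type and less RNA per cell cannot be told apart.

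The 10 genes separated into 4 whose YKL-40 libraries all lay above all controls and 6 whose groups overlapped. The 4 were Ndrg1, Slc2a1, Hk2 and Kdm3a, with fold differences between group means of 2.09, 2.01, 1.56 and 1.32. The other 6 were Bnip3, Car9, Ldha, Pdk1, Pgk1 and Egln3. Of all tested genes, 10.3% had YKL-40 libraries that all lay above the controls. None of the 10 passed the test, which was limma on log2(FPKM + 1) with p-values adjusted by the Benjamini-Hochberg method over 11241 genes, those averaging 1 FPKM or more (0 of 10 at an adjusted p under 0.05, against 0.436% of all tested genes). At an unadjusted p under 0.05 the same fit had 4 of the 10 higher, against 8.71% of all tested genes. With the muscle level as a covariate in limma 2 of the 10 had an unadjusted p under 0.05, against 528 of all 11241 tested genes. The 2 were Ndrg1 (change 1.63) and Hk2 (0.93), and the adjusted p of both was 0.889 in limma. In that fit the unadjusted p of Slc2a1, with a change of 0.98, and that of Kdm3a, with 0.37, were above 0.05. The median change of the 10 genes, YKL-40 minus control, was 0.37 on the log2 scale, beside -0.04 over all tested genes. Without YKL-40 library 1 that median was 0.08. Without control 3, Ndrg1 and Hk2 passed, with changes of 1.41 (adjusted p = 0.0189 in limma) and 0.81 (adjusted p = 0.0442 in limma). In that fit 209 of all 11223 tested genes passed. The changes of Ndrg1 and Hk2 were 0.89 and 0.56 without control 1 (adjusted p = 0.214 and 0.284 in limma). Without control 2 they were 1.01 and 0.57 (adjusted p = 0.288 and 0.328 in limma).

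**Figure D1:**
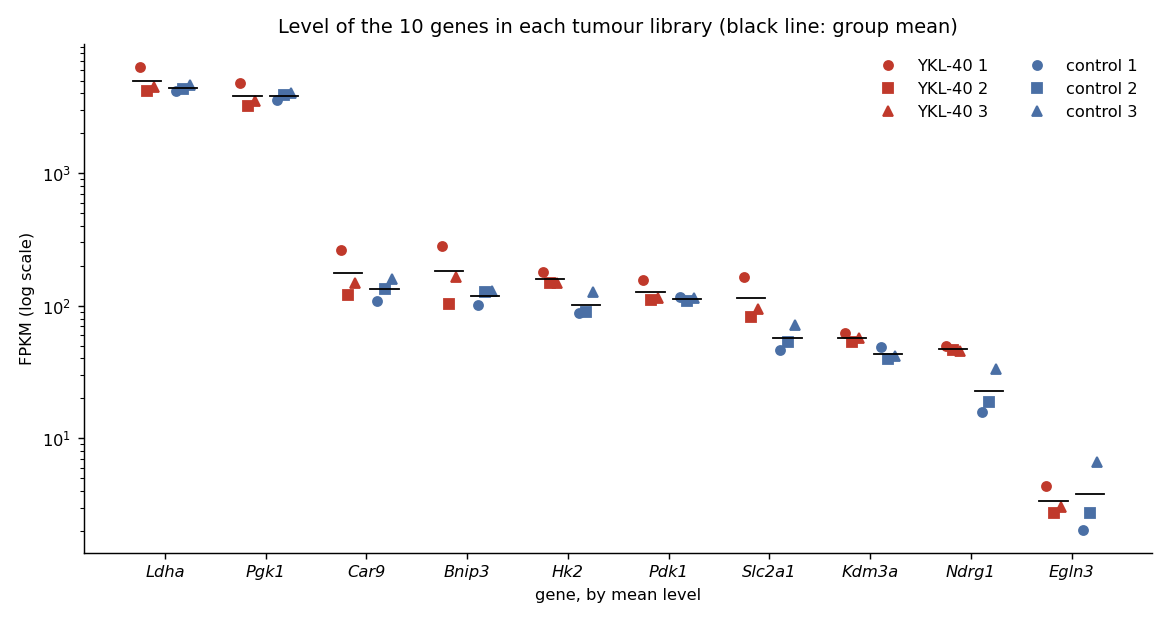
FPKM of the 10 genes in the 3 YKL-40 libraries (red) and the 3 control libraries (blue), on a log axis, with symbols for library number and a black line at each group mean. The red points lie above all blue points for Hk2, Slc2a1, Kdm3a and Ndrg1, and YKL-40 library 1 is the highest red point of all 10 genes.

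HIF binds a core of 5 bases, ACGTG or GCGTG, on either strand, so the promoters were searched for these letters. RefSeq (assembly GRCm38.p6) gave a promoter for 9 of the 10 genes; the entry for Ndrg1 was not found. The 250 bases before the most upstream start that this promoter table lists for a gene are shown for 3 of the genes whose groups did not overlap, Hk2, Slc2a1 and Kdm3a, and for the 2 most abundant ones, Ldha and Pgk1, whose groups did. Capitals mark every match to the core on either strand, so that CACGT and CACGC are matches on the other strand, and each sequence runs 5′ to 3′ on the strand of its gene. The RefSeq gene spans given below begin further upstream than the listed start for Ldha, Kdm3a and Pdk1, so the Ldha window lies inside the span of its gene and the Kdm3a and Pdk1 windows reach into theirs.
Hk2, chr6:82774455-82774704, minus strand: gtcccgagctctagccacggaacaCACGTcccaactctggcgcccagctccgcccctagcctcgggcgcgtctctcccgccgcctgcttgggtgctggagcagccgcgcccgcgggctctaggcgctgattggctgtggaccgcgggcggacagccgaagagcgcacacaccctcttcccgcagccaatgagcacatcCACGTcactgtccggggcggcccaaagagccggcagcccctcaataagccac
Slc2a1, chr4:119108495-119108744, plus strand: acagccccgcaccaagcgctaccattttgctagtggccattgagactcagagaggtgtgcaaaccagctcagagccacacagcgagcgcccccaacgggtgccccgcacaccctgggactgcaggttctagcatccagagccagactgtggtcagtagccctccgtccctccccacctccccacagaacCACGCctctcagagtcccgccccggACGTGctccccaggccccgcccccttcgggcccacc
Kdm3a, chr6:71632918-71633167, minus strand: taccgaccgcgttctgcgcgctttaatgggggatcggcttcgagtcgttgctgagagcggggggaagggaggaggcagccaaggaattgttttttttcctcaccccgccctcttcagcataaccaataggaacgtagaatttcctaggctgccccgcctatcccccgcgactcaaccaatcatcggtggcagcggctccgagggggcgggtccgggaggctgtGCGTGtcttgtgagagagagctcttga
Ldha, chr7:46845554-46845803, plus strand: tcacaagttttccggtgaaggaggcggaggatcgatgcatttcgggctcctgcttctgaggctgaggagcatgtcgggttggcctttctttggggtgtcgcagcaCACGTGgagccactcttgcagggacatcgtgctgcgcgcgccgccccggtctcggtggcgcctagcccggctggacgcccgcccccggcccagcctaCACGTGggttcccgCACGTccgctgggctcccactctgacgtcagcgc
Pgk1, chrX:106186850-106187099, plus strand: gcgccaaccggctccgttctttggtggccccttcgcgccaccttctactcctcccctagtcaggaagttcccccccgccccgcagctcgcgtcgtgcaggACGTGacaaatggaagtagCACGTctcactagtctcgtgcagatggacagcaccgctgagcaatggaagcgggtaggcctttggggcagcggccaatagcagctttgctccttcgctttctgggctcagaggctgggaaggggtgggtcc

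All 9 promoters held at least 1 match to either core, as did 38.6% of 27025 promoters of the same length in the RefSeq table. ACGTG was found in 7 of the 9 (Hk2, Pgk1, Ldha, Slc2a1, Egln3, Bnip3 and Car9), against 16.5% of all promoters, and GCGTG in 4 of the 9 (Pdk1, Slc2a1, Kdm3a and Bnip3), against 28.3%. In Pgk1 the 2 matches began at positions -150 and -131 counted from the start, and in Car9 the only match began at -18. The letters CACGTG, the E-box that MYC and the melanocyte factor MITF can bind, hold ACGTG on both strands. They occurred in Ldha and Bnip3, against 6.04% of all promoters, so the paired matches there belong to an E-box as well. These genes were listed as HIF-1 targets to begin with. A match describes the letters of this window and is not a measured binding site.

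**Figure D2:**
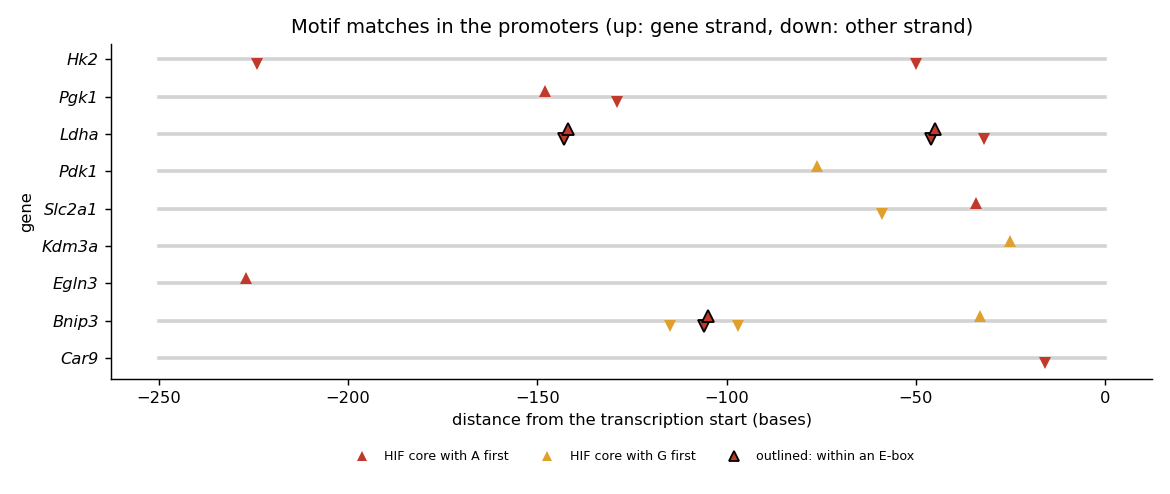
Positions of the 2 core motifs in the 250 bases before the start of 9 genes, with the distance from the start in bases on the x axis, upward triangles for the gene's strand and downward ones for the other. Ldha and Bnip3 hold the outlined matches within an E-box, and every one of the 9 genes has at least 1 match.

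Glucose enters the cell through SLC2A1 (GLUT1), and hexokinase 2, from Hk2, traps it as glucose 6-phosphate. Slc2a1 (chromosome 4, 119108745 to 119137330) had 165, 82.5 and 94.7 FPKM in YKL-40 libraries 1, 2 and 3, against 46.2, 53.0 and 71.2 FPKM in controls 1, 2 and 3. Every YKL-40 library was above every control, and library 1 stood well above the other YKL-40 libraries. Its change was 0.95 ± 0.27 on the log2 scale (SE, adjusted p = 0.149 in limma). Hk2 (chromosome 6, 82725025 to 82774454) had 178, 149 and 148 FPKM in the YKL-40 libraries, against 88.7, 90.2 and 127 FPKM in the controls. The YKL-40 libraries were close to each other, and control 3 lay between the groups. The change was 0.65 ± 0.16 on the log2 scale (SE, adjusted p = 0.111 in limma). GENCODE M21 lists an antisense transcript that shares 105 exon bases with Slc2a1, and the library kit named in the labels keeps no strand, so reads of the pair were not told apart.

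Further down the pathway, phosphoglycerate kinase (Pgk1) makes the first ATP of glycolysis and lactate dehydrogenase A (Ldha) turns pyruvate into lactate. Both were among the most abundant RNAs of the tumours. Ldha ranked 2 to 3 and Pgk1 ranked 4 to 6 of all genes in each library. Ldha (chromosome 7, 46842274 to 46855627) had 6315, 4163 and 4444 FPKM in the YKL-40 libraries, against 4163, 4331 and 4662 FPKM in the controls. Pgk1 (chromosome X, 106187100 to 106203699) had 4799.9, 3196 and 3514 FPKM in the YKL-40 libraries, against 3554, 3897 and 3997 FPKM in the controls. In both genes YKL-40 library 1 was above every control, while YKL-40 libraries 2 and 3 lay within or below the range of the controls. The changes were 0.16 for Ldha, with a 95% interval of -0.24 to 0.56, and -0.01 for Pgk1, with an interval of -0.40 to 0.37 on the log2 scale (adjusted p = 0.660 and 0.978 in limma). Without YKL-40 library 1 the change of Ldha was -0.03 and that of Pgk1 was -0.19. Ldha and Pgk1 have processed pseudogene copies in the mouse genome, and the sources used here do not say how reads were shared among such copies.

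Pyruvate dehydrogenase kinase 1, from Pdk1, blocks the entry of pyruvate into the citric acid cycle. Pdk1 (chromosome 2, 71873215 to 71903858) had 155, 110.0 and 113 FPKM in the YKL-40 libraries, against 117, 109 and 114 FPKM in the controls. As with Ldha, YKL-40 library 1 was high alone and the other 5 libraries were alike. The change was 0.14, with a 95% interval of -0.19 to 0.47 on the log2 scale (adjusted p = 0.643 in limma), and -0.02 without that library.

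Among the genes of oxygen sensing, Egln3 (chromosome 12, 54178981 to 54203874), which encodes the HIF prolyl hydroxylase PHD3, was the least abundant of the 10. It had 4.33, 2.73 and 3.02 FPKM in the YKL-40 libraries, against 2.04, 2.71 and 6.60 FPKM in the controls. Control 3 was the highest library and control 1 the lowest. The change was -0.03, with a 95% interval of -0.82 to 0.75 on the log2 scale (adjusted p = 0.969 in limma), and 0.36 without control 3. Kdm3a (chromosome 6, 71588970 to 71632990), which encodes a histone demethylase that itself uses oxygen, had 61.9, 53.4 and 56.8 FPKM in the YKL-40 libraries, against 49.1, 39.5 and 41.5 FPKM in the controls. The groups were separate but close, with control 1 nearest to the YKL-40 libraries. The change was 0.40 ± 0.11 on the log2 scale (SE, adjusted p = 0.146 in limma).

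The remaining genes act on mitochondria, acid balance and stress. Ndrg1 (chromosome 15, 66929318 to 66969641), a gene induced by low oxygen and by iron depletion, had 49.6, 46.3 and 45.5 FPKM in the YKL-40 libraries, against 15.7, 18.8 and 33.2 FPKM in the controls. It had the highest change of the 10, at 1.10 ± 0.25 on the log2 scale (SE, adjusted p = 0.0918 in limma), and its YKL-40 libraries agreed to within a few FPKM while control 3 stood well above the other controls. GENCODE M21 lists 2 noncoding genes on the other strand, sharing 419 and 137 exon bases with Ndrg1.

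Bnip3 (chromosome 7, 138890836 to 138909506), which encodes a receptor on mitochondria that marks them for mitophagy, had 282, 104 and 166 FPKM in the YKL-40 libraries, against 102, 126 and 128 FPKM in the controls. Car9 (chromosome 4, 43507026 to 43513729), which encodes a carbonic anhydrase on the cell surface that helps export acid, had 265, 120.0 and 147 FPKM in the YKL-40 libraries, against 109, 134 and 160.3 FPKM in the controls. In both genes the 3 YKL-40 libraries spanned more than the controls did, with library 1 highest and library 2 lowest among them. The changes were 0.52 for Bnip3, with a 95% interval of -0.24 to 1.28, and 0.33 for Car9, with an interval of -0.34 to 1.01 on the log2 scale (adjusted p = 0.446 and 0.581 in limma). Without YKL-40 library 1 they were 0.15 and 0.0022, and without YKL-40 library 2 they were 0.87 and 0.57. Without control 1 the change of Car9 was 0.19. Antisense genes in GENCODE M21 share 504 exon bases with Bnip3 and 214 with Car9.

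**Figure D3:**
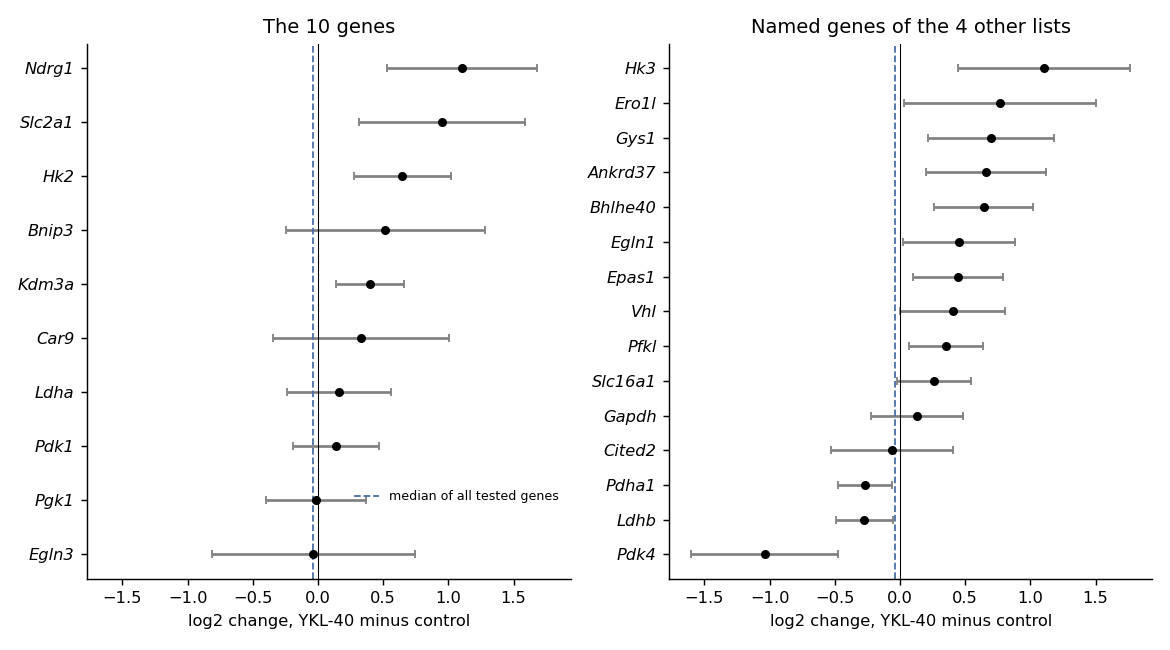
Log2 change, YKL-40 minus control, with its 95% interval from limma, for the 10 genes (left) and for the named genes of the 4 other lists (right), with the median of all tested genes as a dashed line. The intervals of Ndrg1, Slc2a1, Hk2 and Kdm3a lie above 0 before any adjustment, and those of the other 6 include 0.

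For 9 of the 10 genes the level was also set against close relatives, as its share of the family's summed FPKM, a ratio within a library that does not depend on scaling between libraries. Hk2 made up 58.8%, 52.7% and 55.9% of hexokinase RNA in the YKL-40 libraries, against 42.6%, 42.2% and 44.7% in the controls. Hk1, the hexokinase of most tissues, had 123, 130.5 and 113 FPKM in the YKL-40 libraries, against 119, 123 and 155 FPKM in the controls. Hk2 was thus the larger share in every YKL-40 library and Hk1 in every control. Ndrg1 was 53.6%, 65.3% and 59.9% of the NDRG family in the YKL-40 libraries, against 32.2%, 33.6% and 44.2% in the controls. Of its relatives, Ndrg2 overlapped between the groups (8.89 to 24.5 FPKM in the YKL-40 libraries, against 10.8 to 19.9 in the controls), whereas Ndrg4, known mainly from brain and heart, had 4.77 to 7.26 FPKM in the YKL-40 libraries, against 8.88 to 9.40 in the controls (change -0.54, adjusted p = 0.127 in limma). Ndrg3 had 11.0 to 11.8 FPKM in the YKL-40 libraries, against 12.6 to 13.2 in the controls, also without overlap. Slc2a1 was 92.1%, 87.7% and 90.3% of the 3 glucose transporters counted in the YKL-40 libraries, against 79.6%, 78.5% and 84.2% in the controls. Its relatives Slc2a3 (7.85 to 10.1 FPKM in the YKL-40 libraries, against 9.34 to 10.8 in the controls) and Slc2a4 (2.33 to 3.99 against 2.51 to 4.15) overlapped between the groups.

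Shares of Kdm3a and Ldha were separate as well, by smaller amounts. Kdm3a was 86.3%, 81.9% and 83.0% of the sum with Kdm3b in the YKL-40 libraries, against 79.0%, 79.3% and 79.5% in the controls, while Kdm3b overlapped (9.80 to 11.8 FPKM against 10.3 to 13.0). Ldha was 92.7%, 89.5% and 89.6% of lactate dehydrogenase RNA in the YKL-40 libraries, against 87.5%, 86.9% and 89.1% in the controls. The level of Ldha itself overlapped, whereas Ldhb, whose subunit favours the use of lactate, had 495, 490.2 and 514 FPKM in the YKL-40 libraries, against 596, 653 and 569 FPKM in the controls. For each of these 5 families the exact two-sided permutation p was 0.1, the smallest that 3 against 3 libraries allow (adjusted p = 0.18 over 9 families). Hk2, Ndrg1, Slc2a1 and Kdm3a had already been set apart by levels without overlap, and the level is part of the share. Levels of all tested genes did not overlap in 10.3% on the higher side and in 14.2% on the lower side. No such count was made for family shares of other genes. The mean differences were 12.7 percentage points for Hk2, 22.9 for Ndrg1, 9.27 for Slc2a1, 4.43 for Kdm3a and 2.77 for Ldha, and that of Ldha was 1.71 without YKL-40 library 1.

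In the other 4 families the groups overlapped. Bnip3 was 57.0 ± 6.77% of the sum with Bnip3l in the YKL-40 libraries and 49.2 ± 2.06% in the controls (SD, n = 3 each). Bnip3l, a second mitophagy receptor, had 103 to 161 FPKM in the YKL-40 libraries, against 115 to 128 in the controls. Car9 was 49.8 ± 10.8% of the sum with Car12 and Car14 in the YKL-40 libraries and 42.6 ± 7.85% in the controls. The difference of 7.28 percentage points for Car9 was 1.14 without YKL-40 library 1, 3.27 without control 1, 11.3 without YKL-40 library 2 and 11.1 without control 3. The difference of 7.79 for Bnip3 was 4.50 without YKL-40 library 1. Nearly all of the rest of the carbonic anhydrase sum was Car14, at 161, 166 and 176 FPKM in the YKL-40 libraries and 205, 177 and 157 FPKM in the controls. Pdk1 was 65.4 ± 4.18% of the PDK family in the YKL-40 libraries and 65.3 ± 3.07% in the controls. Pdk3 held most of what remained, at 44.5 to 88.8 FPKM in the YKL-40 libraries and 50.7 to 65.5 FPKM in the controls. Egln3 was a small part of the HIF prolyl hydroxylases, at 3.29 ± 0.600% in the YKL-40 libraries and 4.49 ± 2.28% in the controls. Exact two-sided permutation p-values were 0.2 for Bnip3, 0.5 for Car9, 0.6 for Egln3 and 1 for Pdk1.

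**Figure D4:**
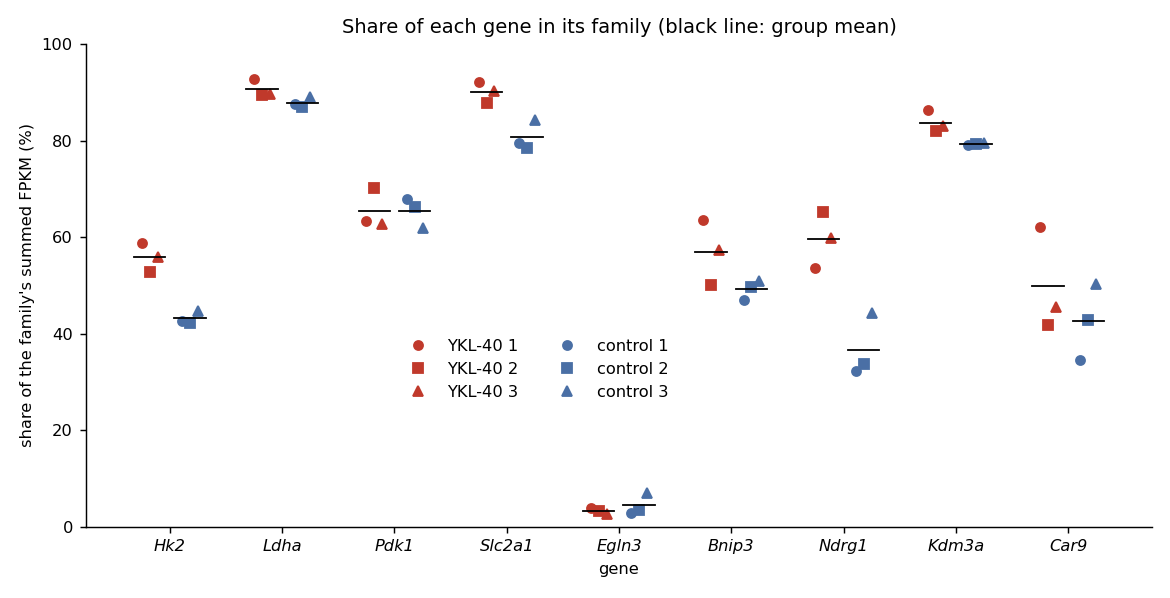
Share of 9 genes in the summed FPKM of their family, in percent, by library, with YKL-40 libraries in red, controls in blue and a black line at each group mean. The groups do not overlap for Hk2, Ldha, Slc2a1, Ndrg1 and Kdm3a, and the smallest gap is that of Ldha, with 89.5% in the lowest YKL-40 library and 89.1% in the highest control.

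The rest of the pathway was described from 4 lists with 72 genes, of which 66 could be tested. None passed over all tested genes in limma, and 12 were higher and 4 lower at an unadjusted p under 0.05, against 8.71% and 9.24% of all tested genes. That total of 16 depended on single libraries in limma. It was 7 when either control 1 or control 2 was left out, 10 without YKL-40 library 1 and 9 without YKL-40 library 3. It was 22 without YKL-40 library 2 and 23 without control 3. Over all tested genes, 2018 had an unadjusted p under 0.05 in the reported limma fit. With control 1, control 2, YKL-40 library 1 or YKL-40 library 3 left out, that number was 1426, 1345, 1619 or 1382. Without YKL-40 library 2 or control 3 it was 2338 or 2041. The total of pathway genes was 3 with the muscle covariate, a fit in which 528 of all tested genes had an unadjusted p under 0.05. Among 12 HIF subunits and oxygen-sensing genes, 10 were tested, with a median change of -0.06, and 3 were higher at an unadjusted p under 0.05. Epas1, the gene of HIF-2 alpha, had 3.24, 4.42 and 4.31 FPKM in the YKL-40 libraries, against 2.92, 2.20 and 2.86 FPKM in the controls, a change of 0.44 (adjusted p = 0.193 in limma). Egln1, the main oxygen sensor of the family and itself a HIF target, had 94.6, 62.4 and 94.2 FPKM in the YKL-40 libraries, against 55.3, 55.4 and 70.0 FPKM in the controls. Vhl, which marks hydroxylated HIF for breakdown, had 38.3, 24.0 and 34.1 FPKM in the YKL-40 libraries, against 21.6, 23.8 and 25.6 FPKM in the controls. Cited2, which competes with HIF for its coactivators and was the most abundant of the list, had 90.2, 66.6 and 74.1 FPKM in the YKL-40 libraries, against 104, 79.1 and 61.3 FPKM in the controls.

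Of 19 other glycolytic enzymes, 18 were tested, with a median change of 0.16. Of these, 14 had a change above 0, against 42.2% of all tested genes. At an unadjusted p under 0.05 in limma 2 were higher and 1 lower, against 8.71% and 9.24% of all tested genes. Pfkl, the liver-type subunit of phosphofructokinase, had 211, 158 and 180.2 FPKM in the YKL-40 libraries, against 137, 139 and 150.1 FPKM in the controls, a change of 0.36 (adjusted p = 0.198 in limma). Gapdh, the most abundant enzyme, had 6839, 5325 and 5385 FPKM in the YKL-40 libraries, against 4615, 5414 and 5988 FPKM in the controls, with YKL-40 library 1 again the highest. Ldhb was the 1 lower gene, with a change of -0.27 (adjusted p = 0.198 in limma). Hk3, the hexokinase of myeloid cells, had 1.69, 2.79 and 3.86 FPKM in the YKL-40 libraries, against 0.253, 0.749 and 1.25 FPKM in the controls, a change of 1.11 (adjusted p = 0.120 in limma). The summed macrophage markers were 332, 398 and 482 FPKM in the YKL-40 libraries, against 91.6, 164 and 297 FPKM in the controls, the same order of libraries as for Hk3.

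Of 13 genes that move glucose, lactate and pyruvate or control the entry of pyruvate into mitochondria, 12 were tested, with a median change of -0.07. At an unadjusted p under 0.05 in limma 0 were higher and 2 lower, against 8.71% and 9.24% of all tested genes. Pdk4, the PDK of muscle and fasting, had 0.287, 0.329 and 0.487 FPKM in the YKL-40 libraries, against 2.05, 0.949 and 2.69 FPKM in the controls, a change of -1.04 (adjusted p = 0.0981 in limma). The summed muscle markers were 39.6, 51.8 and 23.5 FPKM in the YKL-40 libraries, against 108, 61.5 and 199.6 FPKM in the controls, and the controls stood in the same order for both while the YKL-40 libraries did not. Pdha1, a subunit of pyruvate dehydrogenase, had 109, 107 and 117 FPKM in the YKL-40 libraries, against 141, 133 and 128 FPKM in the controls, a change of -0.27 (adjusted p = 0.187 in limma). Slc16a1, the lactate carrier MCT1, had 125, 96.7 and 103 FPKM in the YKL-40 libraries, against 92.7, 94.2 and 82.3 FPKM in the controls, a change of 0.26 (adjusted p = 0.310 in limma).

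Of 28 other HIF targets, 26 were tested, with a median change of 0.33. Of these, 24 had a change above 0, against 42.2% of all tested genes. At an unadjusted p under 0.05 in limma 7 were higher and 1 lower, against 8.71% and 9.24% of all tested genes. Bhlhe40, a transcriptional repressor, had 108, 79.1 and 75.8 FPKM in the YKL-40 libraries, against 48.9, 53.6 and 63.6 FPKM in the controls, a change of 0.64 (adjusted p = 0.119 in limma). Gys1, glycogen synthase, had 82.1, 49.3 and 55.9 FPKM in the YKL-40 libraries, against 32.5, 35.0 and 45.3 FPKM in the controls, a change of 0.70 (adjusted p = 0.157 in limma). In both, every YKL-40 library was above every control. Ankrd37, a small ankyrin-repeat gene, was separate as well, at 9.15, 5.50 and 6.19 FPKM in the YKL-40 libraries, against 3.40, 3.64 and 4.90 FPKM in the controls. Its change was 0.66 (adjusted p = 0.158 in limma). Of the 26 tested genes of the list, 5 had YKL-40 libraries that all lay above the controls, against 10.3% of all tested genes. Ero1l, an oxidase of the endoplasmic reticulum and the most abundant of the list, had 753, 341 and 516 FPKM in the YKL-40 libraries, against 223, 294 and 405 FPKM in the controls, where control 3 was above YKL-40 library 2.

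**Figure D5:**
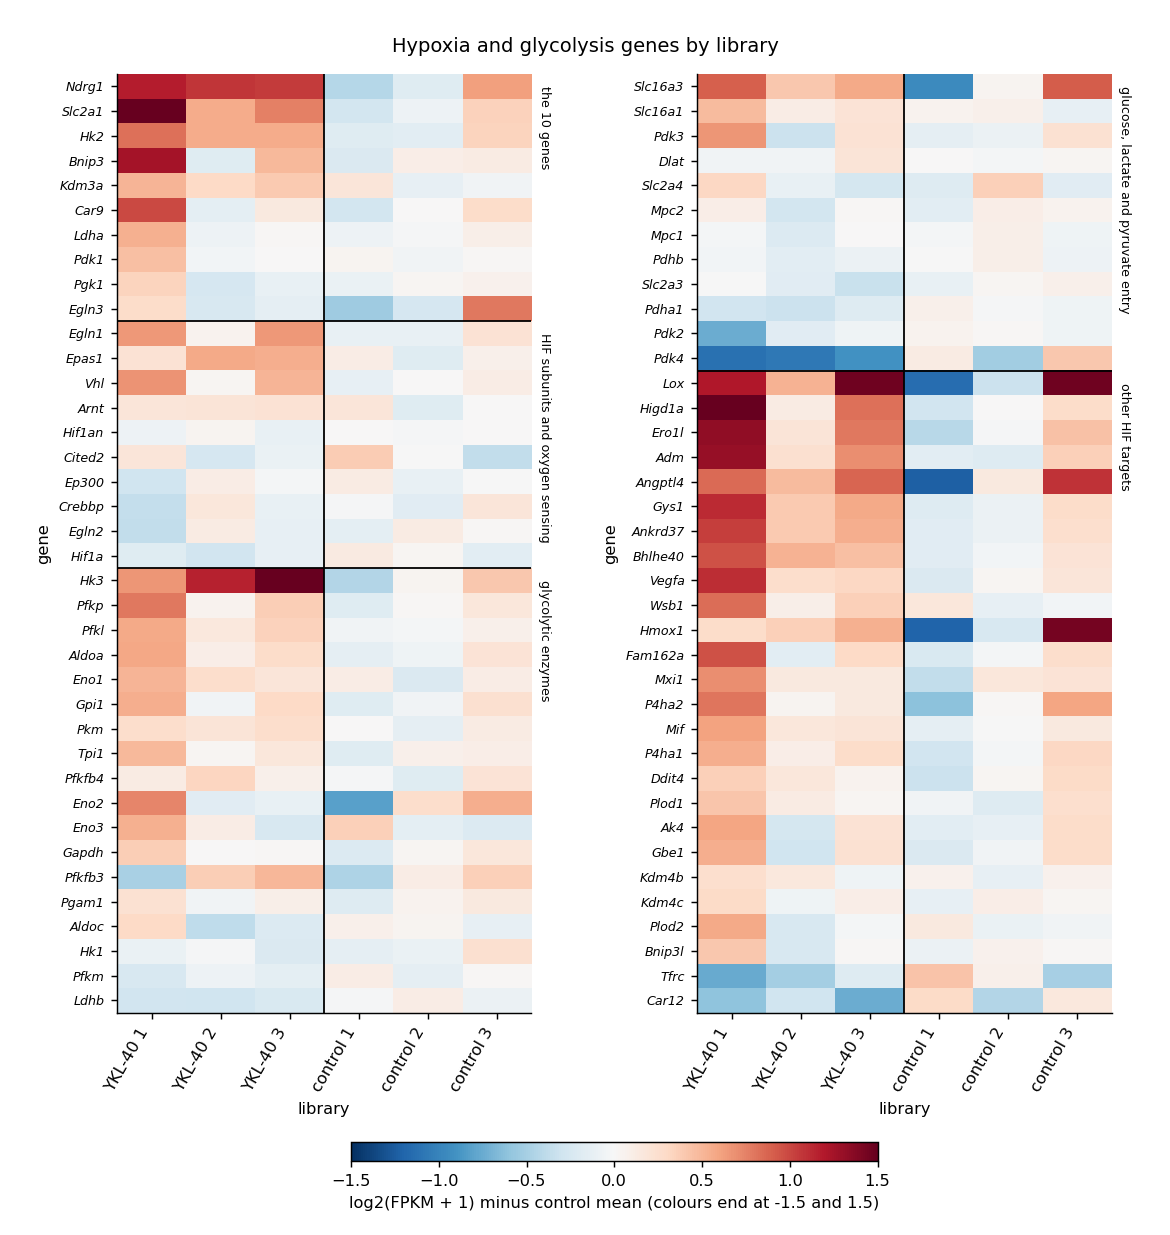
Log2(FPKM + 1) minus the mean of the 3 controls for the 10 genes and the 66 tested genes of the 4 lists, with a column for each library, YKL-40 libraries left of the line and controls right of it. YKL-40 library 1 is the reddest column in the 10 genes and the other HIF targets, and Pdk4, Pdha1 and Ldhb are blue in all 3 YKL-40 columns.

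Single libraries set much of the pattern. YKL-40 library 1 was the highest of the 6 libraries for 9 of the 10 genes, all but Egln3, and for 21 of the 26 tested other HIF targets, against 18.7% of all tested genes. Control 1 was the lowest library for 7 of the 10, against 19.5% of all tested genes. Measured as the median difference of the 10 genes from the control mean on the log2 scale, the YKL-40 libraries stood at 0.68, -0.06 and 0.27 and the controls at -0.20, -0.06 and 0.20. By this measure YKL-40 library 2 was close to control 2 and lower than control 3. Its levels of Hk2, Slc2a1, Ndrg1 and Kdm3a were above every control. That is no separate result, as these genes were set apart by YKL-40 libraries that all lay above all controls.

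The genes whose centred log2 levels over the 6 libraries came nearest to the mean of the 10, by root mean square difference, were Zbed5 (0.0374), Arl6ip5 (0.0482), Pfkp (0.0715), Actb (0.0737) and Aldoa (0.0781). Pfkp and Aldoa encode glycolytic enzymes, phosphofructokinase of platelets and aldolase A, and were on the list of those enzymes. Pfkp had 386, 230 and 288 FPKM in the YKL-40 libraries, against 195, 224 and 249 FPKM in the controls. Aldoa had 2085, 1495 and 1687 FPKM in the YKL-40 libraries, against 1264, 1328 and 1598 FPKM in the controls. Actb, which encodes cytoskeletal beta-actin, had 1521, 1079 and 1203 FPKM in the YKL-40 libraries, against 872, 849 and 1046 FPKM in the controls. Zbed5, Arl6ip5 and Actb were on none of the pathway lists. All 5 genes were picked for being nearest to the profile of the 10, with YKL-40 library 1 highest and controls 1 and 2 lowest. That they show this profile is therefore no separate result.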

How the data were processed

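RNA of 6 tumours was sequenced, 3 YKL-40 and 3 control. Per the labels' protocols, 2 µg of total RNA went into each library (TruSeq RNA v2 kit). That kit does not mark strand. The authors deposited 1 FPKM value per gene and library. Build mm10 and the tools HISAT2, StringTie, limma, DESeq2 and bcl2fastq 2.0 are listed, without roles, in the submitters' processing notes. The annotation and read totals are not given in the sources used here. Depth relative to control 1 was estimated from the most common ratio among genes below 0.3 FPKM in every library, within ratios of 0.7 to 1.5. It was 0.950, 1.20 and 1.13 in the YKL-40 libraries and 1, 1.10 and 1.33 in the controls, and no counting interval could be given. For YKL-40 library 3 the most common ratio held 16 genes and the next most common 15, so its value is poorly fixed.

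Groups came from the labels. All columns were used. The test was limma 3.58.1 in R 4.3.3 on log2(FPKM + 1), which understates changes of low genes, with a variance trend, two-sided, adjusted by Benjamini-Hochberg over the 11241 genes averaging 1 FPKM or more, at 0.05. Intervals are at 95%. The limma fit was tested on simulated data with independent noise in each gene. Shifts shared by many genes of a library were not part of that simulation. Family shares used exact permutation in Python 3.11.15. The 10 genes and all lists were chosen with earlier results of these data known.

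Named were the 10 genes, their relatives, the most abundant gene and the 3 of lowest p of each pathway list, and the 5 nearest profiles. Positions and promoters are from RefSeq, GRCm38.p6, the assembly of mm10. Alternatives were other pseudocounts, filters, scalings and weights, no variance trend, the replicate number as a block, a covariate of 10 muscle markers, and leaving out each library. Of the listed genes, 1 is not reported here.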

Additional observations from a re-analysis of the deposited data

How the results depend on the processing

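Counts of calls depended on the settings. Of the 10 genes, 0 passed in the reported fit and 4 with array quality weights (Hk2, Kdm3a, Ndrg1 and Slc2a1), and between 0 and 2 when single libraries were left out, the 2 being Hk2 and Ndrg1 without control 3. Of the other pathway genes, 0 passed in the reported fit, 7 with array quality weights, 1 (Hk3) with the replicate block, and 0 in each fit without 1 library. Of all tested genes, 49 passed in the reported fit, 1 without a filter, 120 with the replicate block, 1111 with array quality weights and 0 with the skeletal muscle covariate (limma, where 528 had an unadjusted p under 0.05). Without single libraries that count ran between 0 (limma, control 2 left out, where 1345 had an unadjusted p under 0.05) and 238 (YKL-40 library 2 left out). It was 4 without YKL-40 library 1, 2 without control 1 and 209 without control 3.

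The changes of Ndrg1, Slc2a1, Hk2, Kdm3a and Car9 kept their direction in all 16 alternatives. With each library left out in turn, the change was 0.89 to 1.41 for Ndrg1 and 0.65 to 1.15 for Slc2a1. It was 0.56 to 0.81 for Hk2 and 0.34 to 0.49 for Kdm3a. The lowest change of Slc2a1, 0.65, was that without YKL-40 library 1. As the groups of these 4 genes did not overlap, leaving out a library could not turn their direction. With the muscle covariate the change of Bnip3 was -0.016 and that of Egln3 was 0.53, and with median of ratios scaling that of Pgk1 was 0.013. Without single libraries the change ran from -0.19 to 0.11 for Pgk1, from -0.026 to 0.27 for Ldha, from -0.020 to 0.23 for Pdk1, from -0.30 to 0.36 for Egln3, from 0.15 to 0.87 for Bnip3 and from 0.0022 to 0.57 for Car9. The difference in family share then ran from -2.04 to 0.0905 percentage points for Egln3 and from -2.38 to 1.40 for Pdk1, and the other 7 shares kept their direction. The cause of these changes was not tested. Same-numbered libraries did not deviate together (correlations of -0.0832, -0.185 and 0.0017 over tested genes). The labels do not say whether the numbers pair the samples, and with 3 libraries per group these values cannot decide it. The block changed no call of the 10 genes. Read totals are unknown, and the precision is limited by the 3 libraries per group.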

Other observations

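Of the 72 other pathway genes, 6 stayed below the mean of 1 FPKM and were not tested. Hif3a, a HIF subunit that can restrain the others, averaged 0.0946 FPKM in the YKL-40 libraries and 0.543 FPKM in the controls, and its groups did not overlap. Arnt2, a partner of HIF best known from neurons, averaged 0.161 FPKM in the YKL-40 libraries and 0.0541 FPKM in the controls, also without overlap. Both were chosen after their values were seen.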
